A study of Mus musculus with 12 samples.

Results

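The integrated stress response genes Ddit3, Trib3, Chac1 and Asns were followed in cultured mouse macrophages with and without Atf3. They were chosen by a fixed list of 4 transcript IDs, and all 4 were present among the 74007 probe sets of the arrays: ENSMUST00000026475 for Ddit3, ENSMUST00000040312 for Trib3, ENSMUST00000028780 for Chac1 and ENSMUST00000031766 for Asns. The list was drawn up with earlier results of these data known, and the gene names came with it. The gene table used here holds the 4 symbols but no Ensembl IDs, so the pairing of ID and name was not checked against an annotation. Macrophages were grown from femoral bone marrow of 12 female mice aged 8 to 12 weeks on a C57BL/6J background, with recombinant human M-CSF at 50 ng/mL. The 6 WT mice gave 3 unstimulated cultures and 3 cultures with oxidised low-density lipoprotein (oxLDL), and the 6 Atf3-/- mice were divided in the same way. The oxLDL was human LDL oxidised with copper sulphate, given at 25 ug/mL for 24 h. All mice ate normal chow, the knockout allele is not described further, and markers of macrophages or other cells were not analysed here. Each culture was hybridised to its own Affymetrix Mouse Exon array, and the level of a probe set is a log2 value summarised by the authors.

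In the integrated stress response, kinases that sense amino acid shortage, unfolded protein, viral RNA or haem deficiency phosphorylate the initiation factor eIF2. General protein synthesis then falls, while the mRNA of the transcription factor ATF4 is translated better. ATF4 and its C/EBP partners raise genes for amino acid synthesis and transport, glutathione handling and, under lasting stress, cell death. ATF3, the factor deleted in the knockout mice, is itself induced downstream of ATF4, and macrophages loaded with oxidised lipid are a setting in which this pathway and the unfolded protein response have been studied. Of the 4 genes, Ddit3 encodes CHOP, a C/EBP-family factor that promotes cell death under lasting endoplasmic reticulum stress. Trib3 encodes a pseudokinase that binds ATF4, CHOP and AKT and restrains them. Chac1 encodes an enzyme of the cytosol that degrades glutathione. Asns encodes asparagine synthetase, which makes asparagine from aspartate and glutamine.

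A sequence feature shared by these genes was looked for in their promoters, because ATF4 with a C/EBP partner binds a composite site, the C/EBP-ATF response element, also called the amino acid response element. The core letters TGATGNAA were searched on both strands in RefSeq promoter windows (GRCm38.p6) of 300 bases, from 250 before to 50 after the gene start. All 4 genes were matched by symbol, and each had 1 window. The windows were chr10:127290543-127290842 on the plus strand for Ddit3, chr2:152344011-152344310 on the minus strand for Trib3, chr2:119350992-119351291 on the plus strand for Chac1 and chr6:7693160-7693459 on the minus strand for Asns. They are shown 5′ to 3′ in the direction of the gene, with motif matches in capitals.
Ddit3: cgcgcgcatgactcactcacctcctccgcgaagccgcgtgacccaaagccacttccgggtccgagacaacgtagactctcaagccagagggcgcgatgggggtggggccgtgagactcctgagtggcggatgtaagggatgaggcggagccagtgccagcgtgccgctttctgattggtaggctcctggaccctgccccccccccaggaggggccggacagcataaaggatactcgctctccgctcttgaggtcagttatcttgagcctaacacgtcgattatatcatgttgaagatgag
Trib3: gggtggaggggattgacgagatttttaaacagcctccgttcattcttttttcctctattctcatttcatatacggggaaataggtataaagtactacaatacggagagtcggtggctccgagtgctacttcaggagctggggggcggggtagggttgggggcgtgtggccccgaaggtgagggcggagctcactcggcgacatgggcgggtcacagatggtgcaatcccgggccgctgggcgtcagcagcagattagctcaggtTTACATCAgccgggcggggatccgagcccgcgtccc
Chac1: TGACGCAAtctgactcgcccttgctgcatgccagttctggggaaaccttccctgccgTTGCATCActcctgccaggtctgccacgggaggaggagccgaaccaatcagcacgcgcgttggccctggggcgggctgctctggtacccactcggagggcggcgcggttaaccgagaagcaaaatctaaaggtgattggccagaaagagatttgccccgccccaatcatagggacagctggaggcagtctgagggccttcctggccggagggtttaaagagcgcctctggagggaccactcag
Asns: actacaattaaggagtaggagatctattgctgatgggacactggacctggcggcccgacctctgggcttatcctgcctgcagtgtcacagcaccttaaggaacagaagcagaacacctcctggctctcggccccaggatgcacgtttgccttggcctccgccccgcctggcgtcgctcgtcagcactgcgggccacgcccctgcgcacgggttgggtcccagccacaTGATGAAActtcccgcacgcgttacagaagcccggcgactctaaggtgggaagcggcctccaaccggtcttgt

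The core was present in 3 of the 4 windows, against 3.97% of the 32851 windows in the whole table (1304). The genes were listed as targets of the integrated stress response, so this contrast is a description and not a test. In Asns the core lay on the gene's own strand at -23 to -16, counted from the gene start at 1 with no position 0. In Chac1 it lay on the opposite strand at -193 to -186, and in Trib3 on the opposite strand at 15 to 22, downstream of the start. The Chac1 window also opened with TGACGCAA, a match to the related letters TGACGNAA at -250 to -243, which 1.59% of all windows hold. The cyclic AMP response element TGACGTCA, held by 1.79% of all windows, was in none of the 4. The Ddit3 window held none of the 3 motifs, which says only that these letters are not within it. The latter 2 motifs were added after the windows had been read, and a match of letters is a description, not a binding site. No motif matches another, and no matches overlapped.

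Without oxLDL, Ddit3 lay near the middle of the array in both genotypes. On the 3 unstimulated WT arrays its level was 8.74, 8.65 and 8.48 on the log2 scale, and on the 3 unstimulated knockout arrays 8.88, 8.86 and 8.83. With oxLDL it was 9.01, 9.0 and 8.69 in WT and 9.14, 9.09 and 9.23 in the knockout. Every knockout array with oxLDL lay above all other arrays. The share of all probe sets that did so was not counted. Knockout oxLDL arrays lay above the unstimulated knockout arrays for 24.0% of tested probe sets, and above the WT oxLDL arrays for 26.7%. In WT the groups overlapped, because oxLDL replicate 3 lay below the first unstimulated array. The group means stood in the order unstimulated WT (8.62 ± 0.13), unstimulated knockout (8.86 ± 0.02), WT with oxLDL (8.90 ± 0.18) and knockout with oxLDL (9.15 ± 0.07; SD, n = 3 arrays each). The middle neighbours in this order overlapped, and the 3 unstimulated knockout arrays lay within the range of the WT oxLDL arrays.

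Trib3 levels separated by oxLDL, with the genotypes overlapping. Its level was 9.28, 8.75 and 8.97 on the unstimulated WT arrays and 9.76, 9.66 and 9.65 with oxLDL. In the knockout it was 8.99, 8.98 and 9.03 without and 9.42, 9.60 and 9.66 with oxLDL. All 6 oxLDL arrays lay above all 6 unstimulated arrays. The share of all probe sets that did so over both genotypes was not counted. Within WT alone it was 5.43% of tested probe sets, and within the knockout alone 24.0%. The means were 9.0 ± 0.26 and 9.69 ± 0.06 in WT and 9.0 ± 0.03 and 9.56 ± 0.12 in the knockout (SD, n = 3 arrays each). Neighbours of the same stimulus overlapped between the genotypes.

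Chac1 measured 8.77, 8.32 and 8.43 on the unstimulated WT arrays and 8.95, 8.89 and 8.76 with oxLDL. The knockout arrays read 8.47, 8.51 and 8.47 without and 8.77, 8.72 and 8.73 with oxLDL. The 2 knockout groups did not overlap, as for 24.0% of tested probe sets with oxLDL above. In WT the first unstimulated array lay just above oxLDL replicate 3. Means were 8.51 ± 0.24 and 8.86 ± 0.10 in WT and 8.49 ± 0.03 and 8.74 ± 0.02 in the knockout (SD, n = 3 arrays each). Chac1 lay above the array median on 7 of the 12 arrays, namely on all 6 with oxLDL and on 1 without, so it met the filter on low values through the oxLDL arrays. The other genes lay above the median on all 12 arrays.

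Asns had the widest spread among unstimulated WT cultures. Its level there was 10.83, 9.78 and 10.07, and it was 11.25, 11 and 11.34 with oxLDL. In the knockout it was 10.53, 10.66 and 10.52 without and 11.25, 11.10 and 11.17 with oxLDL. As for Trib3, all 6 oxLDL arrays lay above all 6 unstimulated arrays, again without a counted share of all probe sets. The means were 10.23 ± 0.54 and 11.20 ± 0.17 in WT and 10.57 ± 0.08 and 11.17 ± 0.07 in the knockout (SD, n = 3 arrays each). The oxLDL groups of the genotypes overlapped, as did the unstimulated groups.

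**Figure D1:**
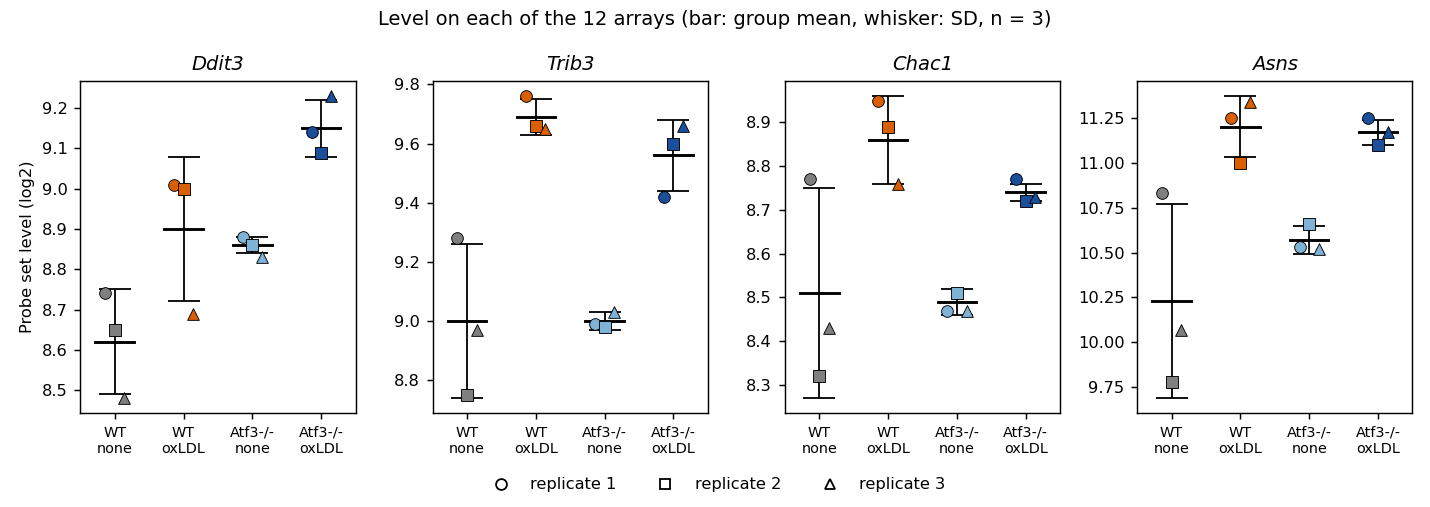
Log2 level of each gene's probe set (vertical axis, separate scale per gene) on the 12 arrays, in 4 groups along the horizontal axis; symbols mark the replicate number, the bar is the group mean and the whisker the SD (n = 3). Trib3 and Asns on the 6 oxLDL arrays sit above the 6 unstimulated arrays, Ddit3 is highest on the 3 knockout arrays with oxLDL (9.09 to 9.23), and the unstimulated WT points spread more widely than the knockout points. The share of all probe sets ordered in these ways over the 12 arrays was not counted.

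Some WT arrays stood apart from their group for these genes. Unstimulated WT replicate 1 was the highest of its group for all 4 genes, by deviations from the group mean of 0.12 for Ddit3, 0.28 for Trib3, 0.27 for Chac1 and 0.60 for Asns. Trib3, Chac1 and Asns were then lowest on replicate 2, and Ddit3 on replicate 3. WT oxLDL replicate 3 was the lowest of its group for Ddit3, Trib3 and Chac1 and the highest for Asns. On that array the SD over all probe sets was 1.17, against 1.26 to 1.37 on the other 11, and its median was the lowest at 8.42, against up to 8.57. The pooled replicate SD of WT was 2.86 times that of the knockout for Ddit3, 2.14 times for Trib3, 7.53 times for Chac1 and 5.25 times for Asns. A wider WT spread was not particular to the 4 genes. Over all tested probe sets, the SD of deviations from group means was 0.128 to 0.252 on WT arrays. On knockout arrays it was 0.0491 to 0.0714. With 3 arrays a group the precision of each value is limited, and in bulk RNA fewer expressing cells and less RNA per cell cannot be told apart.

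With oxLDL, Trib3 and Asns rose in WT macrophages. Trib3 rose by 0.69 on the log2 scale (SE 0.12), or 1.62-fold, with a limma adjusted p of 0.00492 over all tested probe sets. Asns rose by 0.97 (SE 0.21), or 1.96-fold, with an adjusted p of 0.0133 in limma. The changes of Ddit3, 0.28 (SE 0.10, 1.21-fold), and of Chac1, 0.36 (SE 0.11, 1.28-fold), did not pass, with adjusted p of 0.139 and 0.0650 from limma. All 3 oxLDL arrays lay above all 3 unstimulated arrays for Trib3 and Asns, as for 5.43% of the tested probe sets, and not for Ddit3 and Chac1.

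Against the rest of the arrays, 2 of the 4 genes were called, where 7.18% of the 39620 tested probe sets were called in either direction and 2.06% as higher. The list was chosen with earlier results of these data known, so its place among all probe sets is a description, not a test. The median change of the 4 genes was 0.53, and that of all tested probe sets was -0.015. Changes were ranked with their sign, so a decrease of any size counts as below a rise. On that ranking the change of Asns lay above that of 99.7% of tested probe sets and the change of Trib3 above 99.1%. For Chac1 and Ddit3 these shares were 95.4% and 92.6%.

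The WT calls depended on which arrays set the spread. With the 6 WT arrays alone the same changes had limma adjusted p of 0.115 for Trib3 and 0.155 for Asns, and none of the 4 passed, with 277 probe sets called in all. Leaving out unstimulated WT replicate 3 took Asns to 0.89 (adjusted p = 0.0544, limma). Without WT oxLDL replicate 3 all 4 genes passed, with Ddit3 at 0.38 (adjusted p = 0.00942, limma) and Chac1 at 0.41 (adjusted p = 0.0209, limma). The background moved with it: 7304 probe sets were called in that fit, 68.0% of them higher, against 2844 with 28.8% higher in the 12-array fit. Without unstimulated WT replicate 1, Asns rose by 1.27, Trib3 by 0.83 and Chac1 by 0.49 (limma adjusted p = 5.46e-04, 0.00127 and 0.00459), with 2682 probe sets called. These arrays were described above by their levels of the same genes, so a larger rise without them follows in part from which array is left out. The rise of Asns was smaller without WT oxLDL replicate 3, at 0.90 against 0.97 with no array left out. Quantile normalization brought Ddit3 and Chac1 past the threshold, at 0.31 and 0.39 (limma adjusted p = 0.00941 and 0.0224), and so did centring on array medians, at 0.28 and 0.36 (limma adjusted p = 0.0377 and 0.0368). Here too the background moved, with 6743 and 4622 probe sets called, against 2844 with the values as deposited. Read as a percentile among the probe sets of its own array, Ddit3 lay at 50.5 to 55.3 on the unstimulated and 59.1 to 62.0 on the oxLDL WT arrays. Chac1 lay at 43.9 to 56.2 and 57.4 to 61.3. On that scale the WT groups did not overlap for any of the 4 genes, nor for 12.6% of tested probe sets with oxLDL above.

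**Figure D2:**
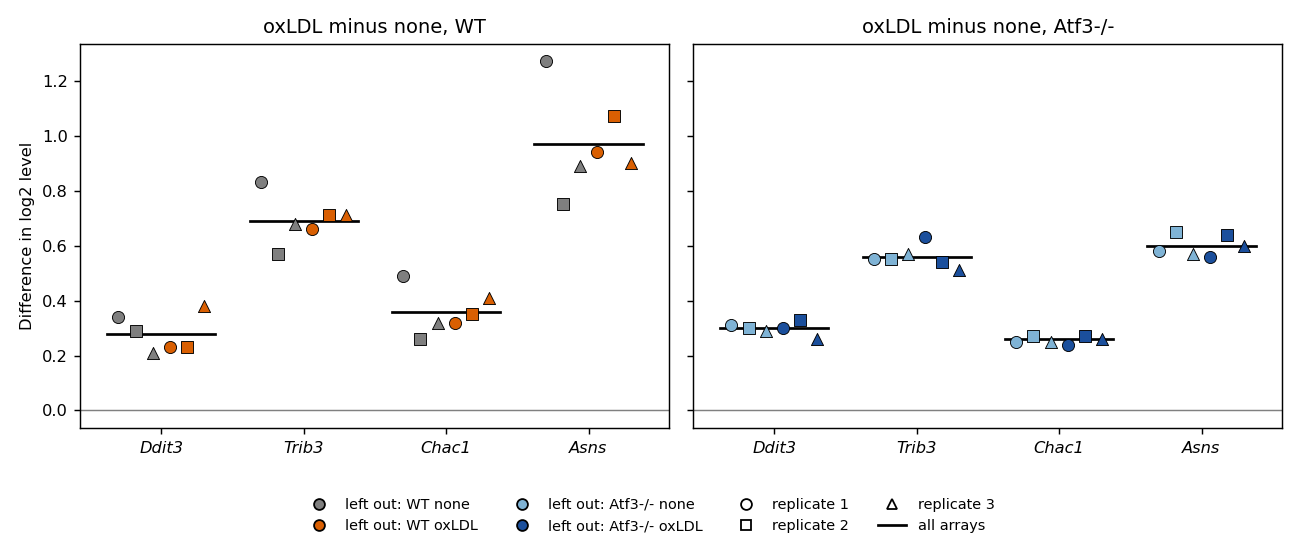
Difference in log2 level, oxLDL minus unstimulated, for each gene in WT (left) and Atf3-/- (right); each point is the value with 1 array of that genotype left out, coloured by the group of that array, and the black line is the value with all arrays. All points lie above 0, and the WT values move between 0.75 and 1.27 for Asns while the knockout values stay between 0.56 and 0.65.

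In Atf3 knockout macrophages the 4 genes were higher on every oxLDL array than on every unstimulated array, and Trib3 was the gene that passed. It rose by 0.56 (SE 0.12), or 1.47-fold, with an adjusted p of 0.0484 in limma. Asns had a difference of 0.60 (SE 0.21, 1.52-fold), Ddit3 of 0.30 (SE 0.10, 1.23-fold) and Chac1 of 0.26 (SE 0.11, 1.19-fold), with limma adjusted p of 0.271, 0.278 and 0.445. For each of the 4 genes all 3 oxLDL arrays lay above all 3 unstimulated arrays, which held for 24.0% of tested probe sets in the knockout. The call of 1 gene in 4 stands against 1.52% of tested probe sets called in either direction and 0.603% called as higher. As in WT, this is a description, because the list was chosen with earlier results of these data known. The median change was 0.43 for the 4 genes and 0.025 for all tested probe sets. Ranked with its sign, the change of Asns lay above that of 99.4% of tested probe sets, with 99.2% for Trib3, 96.3% for Ddit3 and 94.8% for Chac1.

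The adjusted p in the knockout uses a spread shared with the more variable WT arrays. With the 6 knockout arrays alone the differences were the same and all 4 genes passed, Asns with SE 0.06 (adjusted p = 2.32e-05), Trib3 with SE 0.06 (7.10e-05), Chac1 with SE 0.04 (0.00120) and Ddit3 with SE 0.05 (0.00133), all from limma. That fit called 9896 probe sets in all, 56.3% of them higher. The labels do not say whether knockout cultures shared a day or an RNA preparation, and its part in their smaller spread was not tested. In the 12-array fit the call of Trib3 was close to the threshold. Leaving out any 1 of the 6 knockout arrays gave changes of 0.51 to 0.63 and adjusted p of 0.0994 to 0.244 in limma. It was also lost without unstimulated WT replicate 3 (0.0650) or WT oxLDL replicate 1 (0.0724), in limma. Without unstimulated WT replicate 1, Asns passed too (adjusted p = 0.0215, limma), and without WT oxLDL replicate 3, Ddit3 did (adjusted p = 0.0435, limma). Those fits called 808 and 2117 probe sets, against 604 in the 12-array fit.

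**Figure D3:**
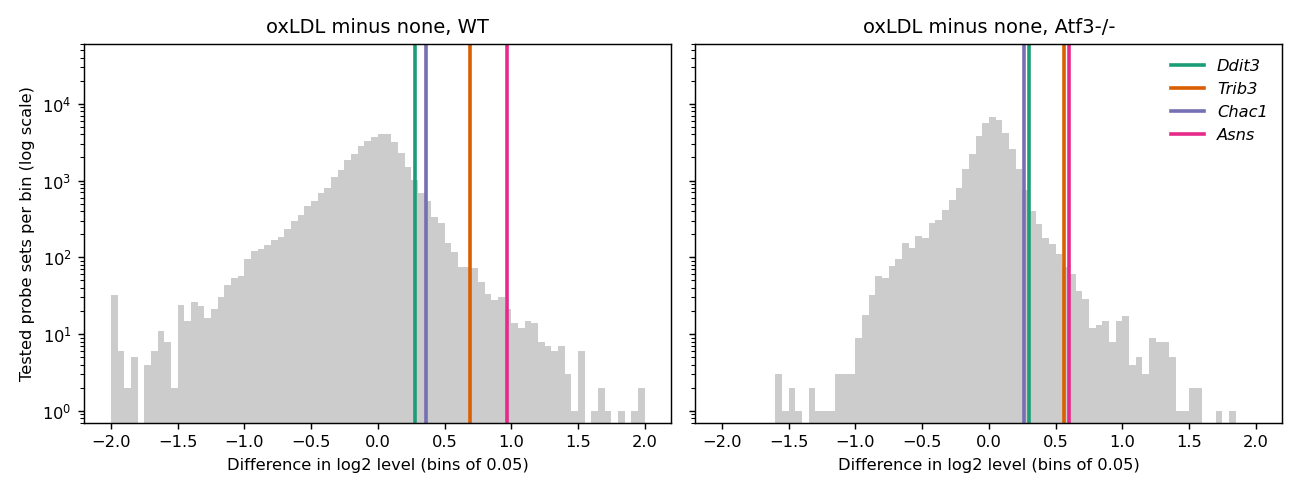
Number of tested probe sets (vertical log axis) by difference in log2 level with oxLDL (horizontal axis, bins of 0.05, end bins holding all values beyond), in WT (left) and Atf3-/- (right), with coloured lines at the 4 genes. In both genotypes the 4 lines lie to the right of the bulk of probe sets, with Asns and Trib3 furthest out, at 0.97 and 0.69 in WT and 0.60 and 0.56 in the knockout.

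Comparison of the genotypes asked whether loss of Atf3 altered the level of these genes. Ddit3 was higher on all 3 knockout arrays than on all 3 WT arrays in both states, by 0.24 (SE 0.10, 1.18-fold) without oxLDL and 0.25 (SE 0.10, 1.19-fold) with it. Neither difference passed, with limma adjusted p of 0.144 and 0.0865, and groups stood apart in this direction for 23.0% and 26.7% of tested probe sets. Without WT oxLDL replicate 3 the unstimulated difference of Ddit3 was 0.24 and passed (adjusted p = 0.0330, limma), while the difference with oxLDL was 0.15 (adjusted p = 0.169, limma). That fit called 13531 and 19771 probe sets. Without unstimulated WT replicate 3 the unstimulated difference was 0.16 (adjusted p = 0.370, limma). Quantile normalization also brought the unstimulated difference past the threshold, at 0.21 (adjusted p = 0.0394, limma). It called 12241 probe sets without oxLDL, against 6640 with the values as deposited.

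Asns was 0.34 higher in the unstimulated knockout (SE 0.21, 1.27-fold, adjusted p = 0.289 in limma), a value that moved with single arrays. It was 0.12 without unstimulated WT replicate 2 (adjusted p = 0.785, limma). Without unstimulated WT replicate 1 the difference was 0.64 (SE 0.13, adjusted p = 0.00458, limma), with 8863 probe sets called against 6640 in the 12-array fit. With oxLDL the difference was -0.03, with a 95% interval of -0.48 to 0.42. Trib3 differed by 0.00 without oxLDL (95% interval -0.27 to 0.27) and by -0.13 with it (-0.40 to 0.14). For Chac1 the differences were -0.02 (-0.25 to 0.21) and -0.12 (-0.35 to 0.11). Without oxLDL these also moved with single arrays, to 0.14 for Trib3 and 0.11 for Chac1 without unstimulated WT replicate 1, and to -0.12 for both without replicate 2. In the 12-array fit the limma adjusted p of Trib3 and Chac1 in both states and of Asns with oxLDL lay between 0.415 and 0.995. None of the 4 genes was called in either state in the 12-array fit, where 16.8% of tested probe sets were called without and 28.8% with oxLDL. The median difference of the 4 genes was 0.12 without and -0.07 with oxLDL, against -0.024 and -0.001 for all tested probe sets. The labels name no batch, and genotype cannot be told apart from any day on which only 1 genotype was handled.

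The test of a different oxLDL response in the genotypes called none of the 4 genes, and 0.00252% of tested probe sets (1 of 39620) in all. The unadjusted limma p was under 0.05 for 1149 probe sets, and the 4 genes had unadjusted p of 0.231 to 0.907. The knockout response minus the WT response was 0.02 for Ddit3 (95% interval -0.30 to 0.34), -0.14 for Trib3 (-0.52 to 0.25), -0.10 for Chac1 (-0.43 to 0.22) and -0.37 for Asns (-1.0 to 0.27). These intervals do not show that the responses were alike. Ranked with its sign, the difference of Asns lay above that of 0.936% of tested probe sets. For Trib3, Chac1 and Ddit3 these shares were 11.8%, 17.1% and 43.3%. The median was -0.12 for the 4 genes and 0.046 for all tested probe sets. The differences of the 4 genes moved with single WT arrays in either direction. Without unstimulated WT replicate 1 that of Asns was -0.67 (SE 0.17, adjusted p = 0.729, limma), with -0.27 for Trib3 and -0.23 for Chac1. Without unstimulated WT replicate 2 they were -0.15, -0.01 and -0.01.

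**Figure D4:**
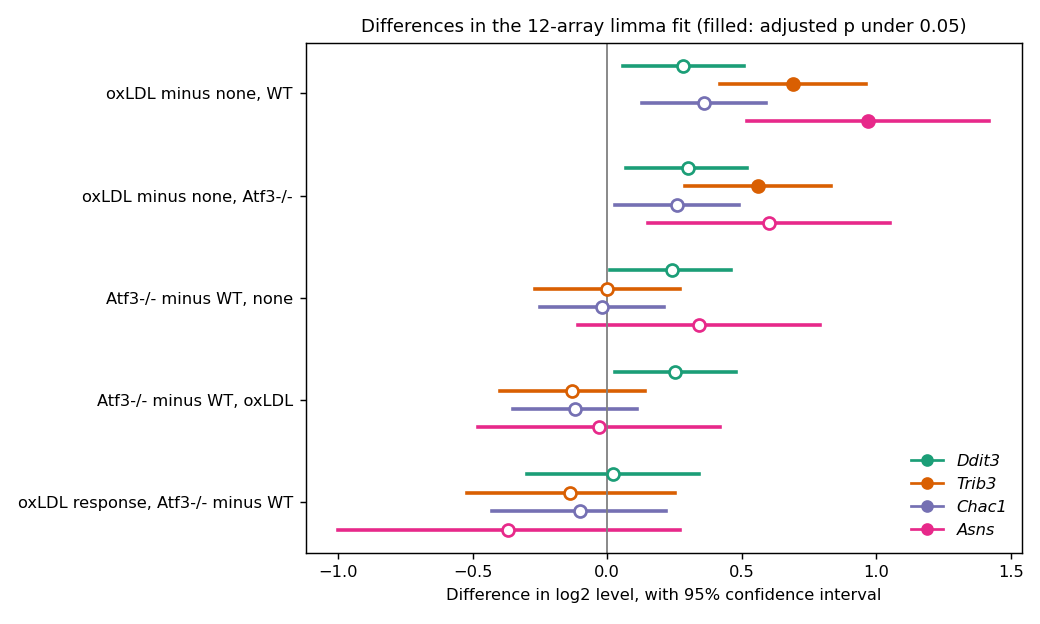
Difference in log2 level (horizontal axis) with its 95% confidence interval for 5 comparisons (vertical axis) and 4 genes in the 12-array limma fit; filled points have an adjusted p under 0.05. The oxLDL differences of all 4 genes are above 0 in both genotypes, and the intervals of the genotype differences include 0 for Trib3, Chac1 and Asns.

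The probe sets most like these genes over the 12 arrays carry no gene name in the sources used here. Other transcripts of the same gene could therefore not be left out, and each gene was read from 1 probe set. Likeness was ranked by Pearson correlation after leaving out probe sets that follow a gene, with values centred on their own mean within 0.15 of it on every array: 65 for Ddit3, 0 for Trib3, 7 for Chac1 and 1 for Asns. Among the rest, the highest correlation with Ddit3 was that of ENSMUST00000007253 (r = 0.982 over 12 arrays), which went from 10.14 ± 0.21 to 10.58 ± 0.28 with oxLDL in WT and from 10.57 ± 0.01 to 10.88 ± 0.10 in the knockout (log2 mean ± SD, n = 3 arrays). For Asns it was ENSMUST00000141254 (r = 0.972 over 12 arrays), at 9.22 ± 0.12 and 9.48 ± 0.06 in WT and 9.34 ± 0.02 and 9.45 ± 0.01 in the knockout. Under the same exclusion the highest r was 0.962 for Trib3 and 0.967 for Chac1. All 12 arrays share the differences between groups, so these values describe the arrays and say nothing of shared control.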

How the data were processed

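The deposited values are log2 expression levels of transcript-level probe sets, per the labels. The submitters' processing notes list PLIER and Affymetrix Power Tools with no version. Sources used here give neither the array normalization nor the annotation build. The table holds 74007 probe sets and 12 arrays, and each column matched 1 sample.

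Arrays were grouped by genotype and stimulus. limma 3.58.1 in R 4.3.3 fitted 1 mean per group to the 12 arrays together, with a trended eBayes prior (8 residual degrees of freedom, 4.36 prior) and Benjamini-Hochberg adjustment per comparison over the 39620 probe sets (53.5%) above the array median on at least 3 arrays. Called means an adjusted p under 0.05. All 4 genes passed this filter. A fold is 2 to the power of the log2 difference; intervals are 95%. The fit was tested on simulated data with the same spread in every group. That test therefore does not cover the unequal spread of the WT and knockout arrays. The labels describe separate mice, but p-values measure only how these samples spread, which can be partly technical. Replicate numbers were not used to pair samples. Correlations of same-numbered deviations were -0.31 to 0.51, over 0.1 in 4 of 18 pairs, and highest between replicate 2 of unstimulated WT and of WT oxLDL. Differently numbered arrays were not compared, so shared handling of same-numbered cultures was not tested.

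The members and lists were chosen with earlier results of these data known. All 4 genes are described whatever their values, with the 1 most correlated other probe set each among those that pass the filter and do not follow the gene, of which 2 are printed because they carry no names. Since 0 of 49997 entries of the gene table hold an Ensembl ID, lists of other stress response genes, markers of macrophages and other cells, and the level of Atf3 were not analysed here. Alternatives were other filters, scalings, priors, array weights, a replicate block, only the arrays compared, and arrays left out.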

Additional observations from a re-analysis of the deposited data

How the results depend on the processing

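In all 23 alternatives the 4 genes kept a higher level with oxLDL in both genotypes, by 0.21 to 1.27 in WT and 0.24 to 0.65 in the knockout. Many of these could not move the difference itself. They were the other filters and priors, the replicate block, only the arrays compared, and arrays of the other genotype left out. The number called was less stable. In WT it was 2 of 4. It was 4 with quantile normalization, centring on medians, array weights or without the 2 WT arrays that stood apart, 0 with the 6 arrays compared, and 1 to 4 with 1 array left out. On array percentiles, chosen after seeing the data, 4 genes in place of 2 had groups that did not overlap. In the knockout the number was 1. It was 0 with a filter at the 25th percentile, without any filter, with a robust prior or a replicate block, 4 with array weights, with the arrays compared or without the 2 WT arrays, and 0 to 2 with 1 array left out. The fits with all 4 called 14261, 9896 and 3580 probe sets in that order. With quantile normalization the number was also 1, but Ddit3 (adjusted p = 0.0410, limma) in place of Trib3 (0.0559). That fit called 1843 probe sets, against 604 with the values as deposited. With the replicate block Trib3 in the knockout had 0.56 (limma adjusted p = 0.0711), and no other call changed; same-numbered samples are separate mice. For knockout against WT without oxLDL the number moved from 0 to 1 with quantile normalization or array weights, to 2 without the 2 WT arrays, and was 0 to 1 with 1 array left out. With oxLDL it moved from 0 to 3 with array weights and to 1 without the 2 WT arrays. For the difference of responses it was 0 in all 22 alternatives. The array weights did not converge and gave WT oxLDL replicate 1 a weight of 1893, against 2.54 or less for the other arrays, so that fit is no guide. Of the 2 WT arrays, unstimulated replicate 1 was the highest of its group for all 4 genes. The other, oxLDL replicate 3, was the lowest of its group for Ddit3, Trib3 and Chac1 but the highest for Asns. Larger rises without the 2 arrays therefore follow in part from that choice and support nothing. Without oxLDL replicate 3 alone the WT rise of Asns was smaller, at 0.90 against 0.97 with no array left out. The causes of these shifts were not tested.

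The background moved too. Over the alternatives other than array weights, 277 to 8362 probe sets were called for oxLDL in WT, 106 to 9896 for oxLDL in the knockout, 2797 to 18734 and 7235 to 22300 for genotype without and with oxLDL, and 1 to 109 for the difference of responses. With array weights these were 9835, 14261, 12923, 33266 and 1406. Quantile normalization took the share of WT oxLDL calls that were higher from 28.8% to 48.4%, and for genotype from 67.9% to 48.7% without and 69.1% to 47.8% with oxLDL. Scaling moved no median of all tested probe sets by over 0.1.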
